A study of Mus musculus with 36 samples.

Results

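The expression of 10 genes of the insulin-like growth factor (IGF) pathway was described in 36 RNA sequencing libraries of mouse kidney progenitor cells. The genes were taken by symbol from the 22761 genes measured, and all 10 were found. They comprise the ligand Igf1, the receptors Igf1r and Igf2r, the adaptor Irs1 and the binding proteins Igfbp2, Igfbp3, Igfbp4, Igfbp5, Igfbp6 and Igfbp7. In each comparison 9 or 10 of them passed the filter on low values, which kept genes at 1 normalised CPM or more in at least 4 of the libraries compared. Igfbp6 was the gene that was left out where only 9 passed. Among the tests between 2 groups there were 18 in which Igf1, Igfbp6 or Igfbp7 passed through the higher group alone, with at most 1 library of the other group at 1, so that the filter itself required a difference. The adjusted p given for those is that of the fit to all genes with no filter, in which all 17 that had been called were called, except where another setting is named. Such other settings kept the filter.

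The libraries came from a study that developed a method for kidney organoids from mouse embryonic stem cells (mESC). It sorted the 3 progenitor types of the fetal kidney, made the same types from mESC, and compared derived and ex-fetu cells by RNA sequencing. Each of the 9 groups held 4 libraries. Cells of the ureteric bud (UB), progenitors of nephrons (NP) and of stroma (SP) were taken from CD1 mouse kidneys at embryonic day 11.5 and 12.5 (E11.5 and E12.5), with the kidneys of all embryos of 1 mouse pooled in a library. Induced NP and SP cells (iNP, iSP) came from embryoid bodies of E14 mESC, and induced UB cells (iUB) from embryoid bodies of a line labelled Sox9-mCherry-mESC, which carries a red reporter. The study's methods name Sox9-mCherry for the sequenced cells but describe the making of a Sox8-mCherry line, so which gene the reporter marks is uncertain. A library of derived cells was 1 differentiation batch, and the spread given is that between such pools. NP and iNP were sorted as ITGA8 high, PDGFRA low, SP and iSP as ITGA8 low, PDGFRA high, all 4 after the removal of CD31 and EpCAM/RET positive cells. The UB gate was RET+/EpCAM+ in the fetal kidney and EpCAM+/mCherry+ for iUB, so differences in these genes between types are no findings. Mouse strain, stem cell origin and culture differ together between derived and ex-fetu cells, and line, protocol and cell type differ together between iUB and the other derived cells, so that they cannot be told apart. The titles of the ex-fetu UB samples and their cell source labels gave opposite ages. Titles, which the cell type label matched, were used here. Under the other label the comparison of E12.5 with E11.5 UB would reverse in direction, the values given against E12.5 UB would be those against E11.5 UB and the reverse, and the E11.5 UB cells set beside SP and NP would be a day older than these.

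IGF1 and IGF2 are secreted ligands that activate the receptor tyrosine kinase encoded by Igf1r, and the adaptor IRS1 carries that signal to the kinases PI3K and AKT, which drive growth. The receptor encoded by Igf2r takes up IGF2 for breakdown in lysosomes, and also sorts lysosomal enzymes. Outside the cell most IGF is held by binding proteins, which can withhold it from its receptor or bring it there, and in the mouse embryo the pathway is a main control of the growth of organs, the kidney included. Igf2, Igf2r and Grb10, the latter encoding an adaptor that restrains insulin and IGF receptors, are imprinted genes.

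RefSeq start sites of GRCm38.p6 gave 11 promoter entries for the 10 genes. The 250 bases before the start are printed for Igf2r, the gene with the greatest fall in iUB, and for Igfbp2, Igfbp4 and Igfbp5, the binding proteins that led per kilobase in E11.5 UB, SP and NP cells. Capitals mark CG dinucleotides, the sites of DNA methylation, and each window reads 5′ to 3′ on the strand of its gene.
Igf2r, chr17:12769707-12769956, minus strand: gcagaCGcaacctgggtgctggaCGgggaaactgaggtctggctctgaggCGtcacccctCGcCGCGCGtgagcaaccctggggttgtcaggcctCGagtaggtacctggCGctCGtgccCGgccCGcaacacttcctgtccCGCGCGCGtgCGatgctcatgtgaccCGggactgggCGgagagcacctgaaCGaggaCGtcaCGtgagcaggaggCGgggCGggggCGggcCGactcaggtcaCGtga
Igfbp2, chr1:72824230-72824479, plus strand: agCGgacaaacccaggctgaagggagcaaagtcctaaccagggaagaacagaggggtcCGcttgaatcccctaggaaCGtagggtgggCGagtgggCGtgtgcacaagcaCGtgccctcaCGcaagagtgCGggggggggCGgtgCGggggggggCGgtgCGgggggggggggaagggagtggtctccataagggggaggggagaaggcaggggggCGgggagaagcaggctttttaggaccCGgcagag
Igfbp4, chr11:99040994-99041243, plus strand: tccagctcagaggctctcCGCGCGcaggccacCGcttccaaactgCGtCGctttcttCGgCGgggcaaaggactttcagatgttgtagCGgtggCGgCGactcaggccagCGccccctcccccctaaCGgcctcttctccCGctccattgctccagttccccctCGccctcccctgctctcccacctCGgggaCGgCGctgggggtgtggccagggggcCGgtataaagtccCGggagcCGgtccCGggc
Igfbp5, chr1:72874866-72875115, minus strand: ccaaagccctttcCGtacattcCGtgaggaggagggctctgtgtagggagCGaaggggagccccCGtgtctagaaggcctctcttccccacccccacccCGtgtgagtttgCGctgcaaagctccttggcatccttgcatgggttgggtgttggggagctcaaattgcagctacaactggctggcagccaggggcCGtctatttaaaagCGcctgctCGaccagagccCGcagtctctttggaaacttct
The Igf2r window held 27 CG, that of Igfbp4 22, that of Igfbp2 14 and that of Igfbp5 10. A second start of Igfbp2 is listed, whose window, not printed here, held 11. Over 32851 promoter windows of the same length the median was 6, and the quartiles were 2 and 16. The Igfbp4 window holds the letters TATAAA, which were searched on both strands and occur in 12.4% of all windows, and so does that of Igfbp6. These are descriptions of the letters only, since no binding or methylation was measured. Igfbp2 and Igfbp5 are neighbours on chromosome 1, 5457 bases apart and facing tail to tail.

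The libraries held between 13.0 M and 52.5 M reads on genes (median 27.4 M), and 3 reads were worth between 0.0605 and 0.223 normalised CPM. UB markers were present in all UB groups (8 of 8 at 1 normalised CPM or more, summed 2220 to 3947), with Ret, on which the ex-fetu cells were sorted, at a mean of 473 in iUB and 364 in E11.5 UB, but Calb1 at 41.4 against 608. The marker lists hold genes of the sort gates (Ret and Epcam for UB, Itga8 for NP, Pdgfra for SP), so their sums are in part set by the sort. The summed 7 NP markers were 488 to 904 in iNP and 1370 to 1522 in E11.5 NP, with Six2 at a mean of 139 and 590. The summed 6 SP markers were 2024 to 2133 in iSP and 2891 to 4681 in E11.5 SP, with Foxd1 at 15.2 and 410. The summed 7 macrophage markers lay between 44.0 and 98.9 in the ex-fetu UB libraries and between 0.283 and 0.426 in iUB, where 3 of the 7 were at 0. The summed 6 endothelial markers were 49.2 to 83.7 in iNP and 36.7 to 57.7 in iSP, against 9.71 to 30.2 in E11.5 NP and 15.2 to 45.1 in E11.5 SP. The summed 6 erythroid markers were at most 0.141 in any derived library, against 44.2 to 1149 in E11.5 SP. Pecam1, which encodes CD31, had a mean of 3.24 in iNP and 4.26 in iSP, against 1.76 in NP and 2.34 in SP at E11.5. Markers of the differentiating nephron were 530 to 670 in iNP and 147 to 318 in E11.5 NP, and 40.3 to 63.1 in iSP and 72.3 to 97.5 in E11.5 SP. Smooth muscle markers were 6.83 to 8.07 in iSP and 71.3 to 162 in E11.5 SP, and 4.75 to 11.3 in iUB and 41.8 to 67.4 in E11.5 UB. In iSP the UB markers (79.7 to 87.7 against 130 to 298) and neural markers (3.45 to 4.35 against 11.6 to 17.8) were below E11.5 SP as well. In iNP the UB markers were 95.5 to 97.9, against 28.8 to 50.8 in E11.5 NP. The part of these other cells in the differences below was not tested. Replicate 1 of E12.5 UB stood apart, with NP markers at 408 and SP markers at 429, against 51.6 to 81.7 and 22.4 to 44.7 in the other 3. Replicate 2 of iNP stood apart as well, with NP markers at 488 against 733 to 904. Calls that change without either library are given with and without it.

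In derived cells compared with E11.5 cells of the same type, most of the IGF genes differed, and in different directions by cell type. A gene was called where the adjusted p of the limma test over all genes was under 0.05. In iUB 6 of 9 genes were called, 3 higher and 3 lower, where 60.5% of all genes tested were called. In iSP 7 of 10 were called, 4 higher and 3 lower, against 67.6% of all genes, and in iNP 8 of 10, 7 higher and 1 lower, against 64.7%. These shares are near those of all genes, and are no result about the IGF genes. The median size of the log2 difference was 0.74 in iUB, 1.23 in iSP and 1.30 in iNP for the IGF genes, beside 0.41, 0.54 and 0.53 for all genes tested. Without replicate 2 of iNP, 9 of 9 genes were called in iNP, 8 higher and 1 lower, and 72.0% of all genes. Igfbp7, called higher with all libraries, no longer passed the filter there. The comparison with E12.5 cells, a day later in the fetus, called 4 of 9 genes in iUB (1 higher, 3 lower, with 44.4% of all genes), 8 of 10 in iSP (5 higher, 3 lower, with 62.1%) and 6 of 10 in iNP (5 higher, 1 lower, with 44.3%). Without replicate 1 of E12.5 UB the count in iUB was 6 of 8, 3 higher and 3 lower, and 51.5% of all genes, and without replicate 4 it was 4 of 8 and 34.6%. Without replicate 4 of E11.5 SP, 6 of 9 genes were called in iSP against E11.5 and 72.4% of all genes, where Igfbp6 no longer passed the filter. Without replicate 1 of E12.5 SP, 8 of 9 were called in iSP against E12.5 and 69.9% of all genes. Igfbp6 was again left out there, and Igf1r was called lower. The comparisons with E11.5 and with E12.5 share their derived libraries.

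**Figure D1:**
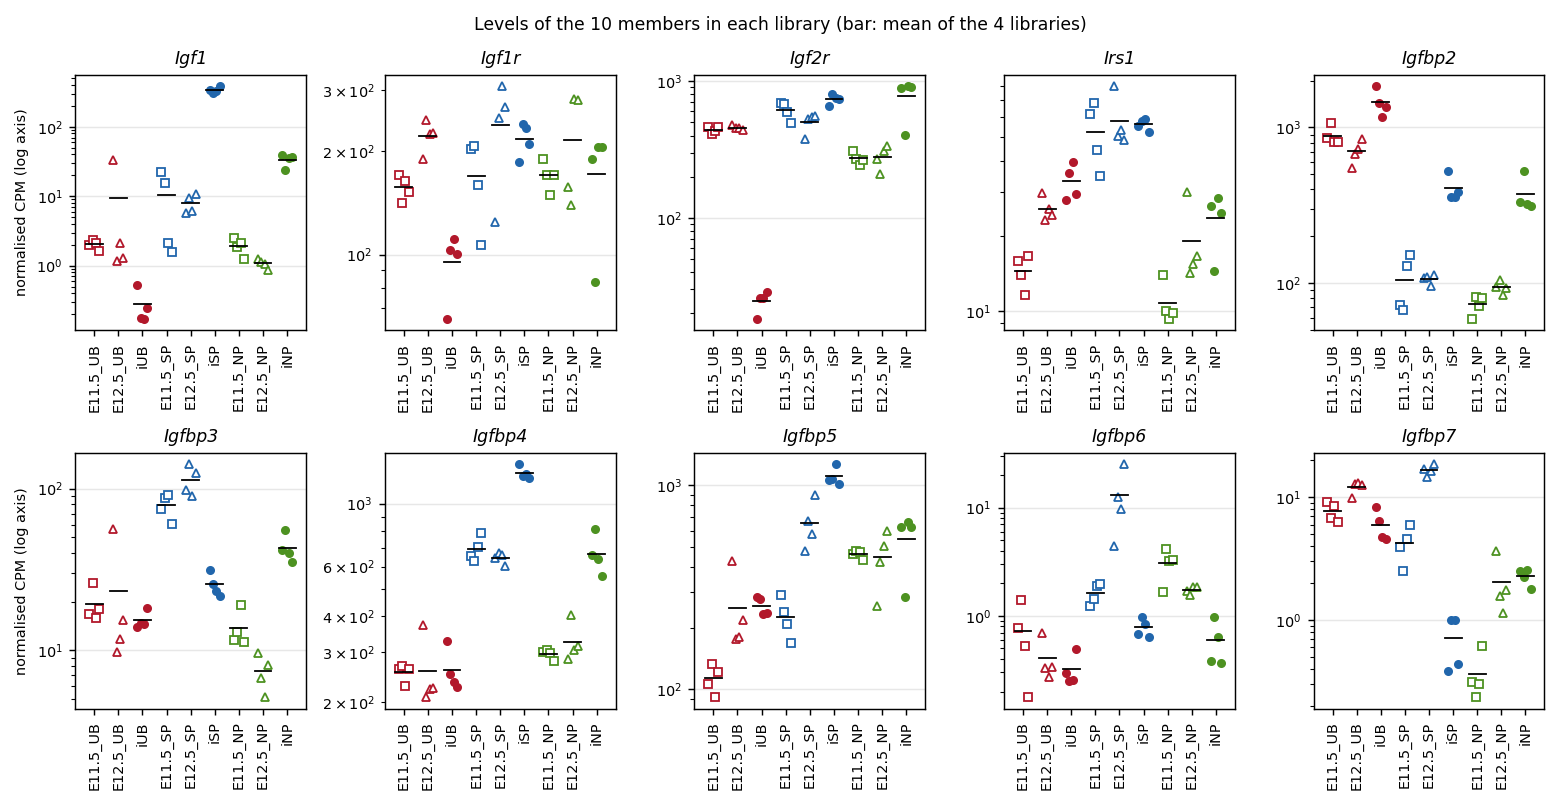
Level of each of the 10 IGF genes in every library, in normalised CPM on a log axis, by group. Points are libraries and bars the mean of 4, and Igf1 in the 4 iSP libraries (302 to 384) and Igf2r in the 4 iUB libraries (18.2 to 28.5) lie apart from all other groups.

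The ligand Igf1 (ENSMUSG00000020053, GRCm38 chr10:87858265-87937042, plus strand) was far higher in both stromal and nephron progenitors made from mESC than in their ex-fetu counterparts. The 4 iSP libraries held 336, 302, 329 and 384 normalised CPM, the unit of reads scaled to a fixed library total. E11.5 SP held 22.4, 15.7, 2.11 and 1.56, and E12.5 SP 5.80, 9.57, 6.02 and 10.7. Every iSP library was above every other library of the study, while the E11.5 SP libraries split into a pair with more and a pair with less Igf1. In those 4 the summed erythroid markers were 44.2, 186, 174 and 1149, and their part in the split was not tested. The mean in iSP was 32.4-fold that of E11.5 SP, or 52.4-fold without replicate 1 of E11.5 SP, the highest (log2 difference 5.50 ± 0.66 SE, adjusted p = 6.05e-05, limma) and 42.1-fold that of E12.5 SP (log2 difference 5.27 ± 0.18 SE, adjusted p = 4.47e-08). Since the samples are bulk, more cells with Igf1 mRNA and more of it per cell cannot be told apart, here or for the genes below.

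The iNP libraries held 38.8, 24.003, 35.6 and 36.1 normalised CPM of Igf1. E11.5 NP held 2.49, 1.88, 2.13 and 1.26, and E12.5 NP 1.26, 1.13, 1.04 and 0.875, so that no iNP library overlapped with either. The mean was 17.3-fold that of E11.5 NP (log2 difference 3.55 ± 0.18 SE, adjusted p = 3.4e-07) and 31.3-fold that of E12.5 NP (log2 difference 4.04 ± 0.17 SE, adjusted p = 1.62e-07). UB cells went the other way. The iUB libraries held 0.520, 0.177, 0.172 and 0.248 normalised CPM, from 7, 5, 4 and 7 reads, and E11.5 UB held 2.002, 2.33, 2.12 and 1.64. The mean in E11.5 UB was 7.24-fold that of iUB (log2 difference -1.24 ± 0.13 SE, adjusted p = 2.49e-05 with no filter), and the call was lost when all 36 libraries shared 1 estimate of the spread (adjusted p = 0.0652). E12.5 UB held 32.9, 1.184, 2.10 and 1.30, and the highest was replicate 1, whose summed endothelial markers were 94.2 against 3.27 to 6.2 in the other 3. Its mean was 9.38 ± 15.7 (SD, n = 4) with that library and 1.53 ± 0.499 without it, and the difference of iUB from E12.5 UB was not called (adjusted p = 0.0978 with no filter), although the libraries did not overlap. It was called in 3 of 11 alternatives, each with the filter that Igf1 passed through E12.5 UB alone, which is no support for a difference.

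The other ligand, Igf2 (chr7:142650766-142666816, minus strand), was measured beside it. Its mean was 9868 ± 330 normalised CPM in iSP, above the 3553 ± 595 of E11.5 SP (SD, n = 4; log2 difference 1.49, adjusted p = 1.51e-05). In iNP it was 7520 ± 944, against 2248 ± 183 in E11.5 NP (log2 difference 1.74, adjusted p = 3.43e-06). In iUB it was 713 ± 143, against 1385 ± 207 in E11.5 UB (log2 difference -0.97, adjusted p = 0.000518). Igf2 was thus called higher in iSP and iNP and lower in iUB than at E11.5. The E12.5 UB libraries held 2647, 816, 1163 and 1089, again with replicate 1 the highest, and iUB overlapped with them and was not called against E12.5 UB (log2 difference -0.87, adjusted p = 0.0581). Igf2 shares 3596 exonic bases with Gm49394 on the same strand, for which no value was used here, and 98 with its antisense RNA, and whether the authors counted by strand is not given in the sources used here.

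The receptor gene Igf1r (ENSMUSG00000005533, chr7:67952827-68233668, plus strand) varied little beside its ligands. Its group means lay between 157 and 237 normalised CPM in 8 of the groups, whose neighbours in order all overlapped, and at 94.9 ± 20.3 (SD, n = 4) in iUB. The iUB libraries held 65.2, 103, 111 and 101, and E11.5 UB 170, 141, 164 and 152. All 4 iUB libraries were below those of E11.5 UB and of E12.5 UB, which held 189, 246, 224 and 225. The log2 difference was -0.74 ± 0.15 SE from E11.5 UB (adjusted p = 0.00206) and -1.23 ± 0.17 SE from E12.5 UB (adjusted p = 0.000462). Neither iSP nor iNP was called against E11.5 cells (log2 difference 0.40, adjusted p = 0.0997, and -0.07, adjusted p = 0.82). In iNP replicate 2 held 83.4 beside 190, 205 and 205, and without it the log2 difference was 0.24 ± 0.08 SE (adjusted p = 0.02). Against E12.5 SP iSP was not called, and was called lower without replicate 1 of E12.5 SP (log2 difference -0.35 ± 0.10 SE, adjusted p = 0.0132).

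Igf2r (ENSMUSG00000023830, chr17:12682406-12769664, minus strand), the receptor that clears IGF2, was almost lost from iUB and raised in iNP. The iUB libraries held 18.2, 25.9, 25.8 and 28.5 normalised CPM. E11.5 UB held 459, 411, 429 and 462, and E12.5 UB 476, 453, 454 and 438, so the iUB libraries lay far below both. The mean in E11.5 UB was 17.9-fold that of iUB (log2 difference -4.12 ± 0.12 SE, adjusted p = 1.71e-08), and that in E12.5 UB 18.5-fold (log2 difference -4.17 ± 0.13 SE, adjusted p = 1.68e-07). Igf2r was also lower in iUB than in the other derived cells, by 4.87 on the log2 scale from both iSP (adjusted p = 1.25e-09) and iNP (adjusted p = 4.11e-07). The antisense RNA Airn, which is known to silence the paternal Igf2r copy in the mouse, had means of 6.53 in iUB and 4.69 in E11.5 UB, with libraries that overlapped, and shares no exonic bases with Igf2r. The summed macrophage markers, which were near 0 in iUB, were at most 98.9 in ex-fetu UB.

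The iNP libraries held 895, 403, 920 and 905 normalised CPM of Igf2r, against 310, 270, 245 and 265 in E11.5 NP and 270, 208, 309 and 336 in E12.5 NP. Replicate 2 was the low one, and still above every ex-fetu NP library. The mean was 2.87-fold that of E11.5 NP (log2 difference 1.44 ± 0.25 SE, adjusted p = 0.000614), and without replicate 2 the log2 difference was 1.74 ± 0.08 SE (adjusted p = 7.08e-08). In iSP the libraries held 662, 803, 759 and 745, against 692, 675, 600 and 490 in E11.5 SP, which overlapped (log2 difference 0.28 ± 0.12 SE, adjusted p = 0.0638). From E12.5 SP, at 377, 533, 543 and 554, the difference was called (log2 difference 0.58 ± 0.13 SE, adjusted p = 0.00388). 

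The adaptor gene Irs1 (ENSMUSG00000055980, chr1:82233101-82291416, minus strand) was higher in the derived UB and NP cells than at E11.5, and was not called in SP cells. The iUB libraries held 27.9, 35.8, 39.6 and 29.6 normalised CPM, and E11.5 UB 15.9, 14.0, 11.6 and 16.7. The iNP libraries held 26.6, 14.6, 28.5 and 24.7, and E11.5 NP 14.0, 10.1, 9.34 and 9.88. In both pairs the groups did not overlap, by a narrow margin in NP, and the means were 2.29-fold (log2 difference 1.14 ± 0.14 SE, adjusted p = 8.2e-05) and 2.18-fold (log2 difference 1.03 ± 0.21 SE, adjusted p = 0.00178). Against E12.5 cells Irs1 was not called, with an adjusted p of 0.0612 in UB and 0.374 in NP. Without replicate 1 of E12.5 UB the adjusted p in UB was 0.0263 (log2 difference 0.41). In SP the means were 56.2 ± 2.86 in iSP, 52.3 ± 15.5 at E11.5 and 58.1 ± 14.7 at E12.5 (SD, n = 4), and the log2 difference of iSP from E11.5 SP was 0.15 ± 0.19 SE (adjusted p = 0.508). Irs1 shares 2822 exonic bases with Gm9747 on the opposite strand, whose group means were at most 0.171.

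**Figure D2:**
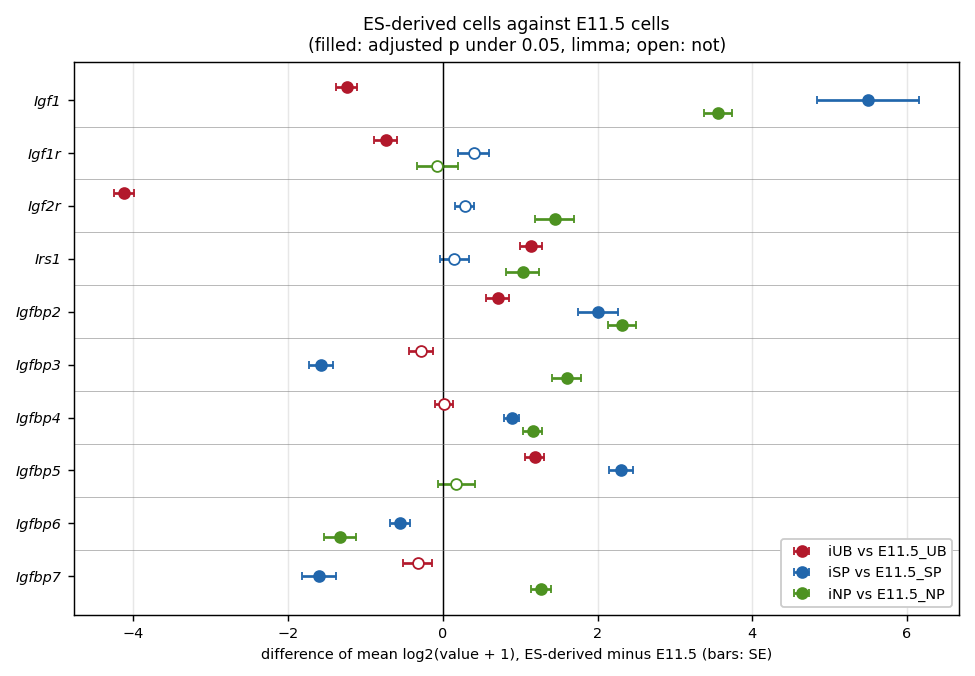
Difference of each IGF gene between derived and E11.5 cells of the same type, as the difference of mean log2(value + 1), with bars for the SE and filled points for an adjusted p under 0.05. Igf1 lies at 5.50 in SP, 3.55 in NP and -1.24 in UB, Igf2r at -4.12 in UB, and Igfbp2 to the right of 0 in all 3 types.

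Of the binding proteins, Igfbp2 (ENSMUSG00000039323, chr1:72824503-72852474, plus strand) was called higher in all 3 derived types, as Igfbp5 was too when replicate 2 of iNP was left out. The iUB libraries held 1842, 1444, 1174 and 1345 normalised CPM, and E11.5 UB 850, 1061, 804 and 812. The iSP libraries held 524, 359, 358 and 386, and E11.5 SP 72.2, 67.5, 130 and 152. The iNP libraries held 331, 528, 321 and 311, and E11.5 NP 59.0, 81.0, 71.6 and 79.8. In none of the 3 pairs did the groups overlap. The means were 1.65-fold in UB (log2 difference 0.71 ± 0.15 SE, adjusted p = 0.00201), 3.86-fold in SP (2.01 ± 0.26 SE, adjusted p = 0.000105) and 5.11-fold in NP (2.31 ± 0.18 SE, adjusted p = 3.91e-06). Igfbp2 was also called higher against E12.5 cells in all 3 types, by log2 differences of 1.04, 1.91 and 1.94. Within each origin it remained highest in UB cells, which at E11.5 held 8.37-fold the level of SP and 12.1-fold that of NP.

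Igfbp4 (ENSMUSG00000017493, chr11:99041244-99054392, plus strand), mostly known as an inhibitor of IGF action until it is cleaved by the protease PAPP-A, was higher in iSP and iNP. The iSP libraries held 1376, 1251, 1278 and 1233 normalised CPM, and E11.5 SP 654, 626, 706 and 791. The iNP libraries held 659, 814, 637 and 557, and E11.5 NP 300, 303, 298 and 279. Both derived groups lay wholly above their counterparts, with means 1.85-fold (log2 difference 0.89 ± 0.10 SE, adjusted p = 3.01e-05) and 2.26-fold (log2 difference 1.16 ± 0.12 SE, adjusted p = 2.1e-05). In UB the groups overlapped, at 260 ± 46.5 in iUB and 254 ± 17.5 at E11.5 (SD, n = 4; log2 difference 0.02 ± 0.12 SE, adjusted p = 0.902).

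Igfbp5 (ENSMUSG00000026185, chr1:72857932-72874884, minus strand), which binds to matrix as well as to IGF, was higher in iSP and iUB. The iSP libraries held 1060, 1076, 1266 and 1020.5 normalised CPM, against 289, 240, 210 and 169 in E11.5 SP and 477, 666, 578 and 897 in E12.5 SP. The iUB libraries held 282, 276, 235 and 236, against 106, 133, 91.6 and 121 in E11.5 UB. The derived cells were above in each, and the means were 4.87-fold that of E11.5 SP (log2 difference 2.30 ± 0.15 SE, adjusted p = 1.71e-06), 1.69-fold that of E12.5 SP (0.79 ± 0.17 SE, adjusted p = 0.00331) and 2.27-fold that of E11.5 UB (1.19 ± 0.12 SE, adjusted p = 2.18e-05). Against E12.5 UB (427, 177, 180 and 218) iUB was not called (adjusted p = 0.701), and without replicate 1 of E12.5 UB the log2 difference was 0.42 ± 0.11 SE (adjusted p = 0.0117). In iNP the libraries held 626, 282, 660 and 624, and E11.5 NP 462, 475, 472 and 431. The difference was not called (log2 difference 0.18 ± 0.24 SE, adjusted p = 0.543), while without replicate 2, the low one, it was 0.47 ± 0.06 SE (adjusted p = 4.3e-05).

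Igfbp3 (ENSMUSG00000020427, chr11:7206086-7213923, minus strand), the main IGF carrier of adult blood, changed in opposite directions in SP and NP. It was highest in SP among the E11.5 cells, at 75.1, 87.8, 91.1 and 60.9 normalised CPM in E11.5 SP, and fell to 31.6, 25.9, 23.3 and 21.8 in iSP. In NP it rose from 11.6, 12.9, 19.0 and 11.2 at E11.5 to 41.9, 55.4, 39.9 and 35.2 in iNP. The groups did not overlap in either type. The log2 difference was -1.58 ± 0.15 SE in SP (adjusted p = 1.5e-05) and 1.60 ± 0.19 SE in NP (adjusted p = 5.14e-05). Among the derived cells iNP held 1.68-fold the level of iSP (adjusted p = 0.00646, or 0.0712 with all 36 libraries in 1 fit), while E11.5 SP held 5.76-fold that of E11.5 NP (adjusted p = 6.64e-06). In UB iUB and E11.5 UB overlapped (15.4 ± 1.95 and 19.2 ± 4.75, adjusted p = 0.146).

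Igfbp6 had a mean of at most 3.07 normalised CPM in all groups but E12.5 SP (13.0), and the means of Igfbp7 lay between 0.365 and 16.6. At the low end of these levels log2(value + 1) differences understate the change in level. Where both are called against E11.5 cells below, the adjusted p is that of the fit with no filter unless another setting is named. Igfbp6 (ENSMUSG00000023046, chr15:102144362-102149511, plus strand), which prefers IGF2, held 1.23, 1.43, 1.87 and 1.98 normalised CPM in E11.5 SP and 0.676, 0.967, 0.850 and 0.642 in iSP, without overlap (log2 difference -0.55 ± 0.13 SE, adjusted p = 0.00435). With the filter and all 36 libraries sharing 1 estimate of the spread, that call was lost (adjusted p = 0.0675). In NP it held 1.68, 4.13, 3.24 and 3.25 at E11.5 and 0.387, 0.984, 0.644 and 0.364 in iNP, again lower in every derived library (log2 difference -1.33 ± 0.21 SE, adjusted p = 0.00048). Igfbp7 (ENSMUSG00000036256, chr5:77349240-77408041, minus strand), which binds IGF weakly, held 3.90, 2.53, 4.61 and 5.96 in E11.5 SP and 0.387, 1.003, 0.997 and 0.439 in iSP. It was lower there, and higher in iNP, which held 2.50, 2.23, 2.58 and 1.80 against 0.312, 0.235, 0.299 and 0.615 in E11.5 NP. The log2 differences were -1.60 ± 0.22 SE (adjusted p = 0.000243) and 1.26 ± 0.13 SE (adjusted p = 2.45e-05), while in UB the groups overlapped (adjusted p = 0.149 with the filter). Against E12.5 cells Igfbp7 was not called in iNP, at a mean of 2.28 against 2.02 with libraries that overlapped (log2 difference 0.17, adjusted p = 0.551), and was lower in iUB without overlap, at 6.001 against 12.1 (log2 difference -0.93, adjusted p = 0.00335). Igfbp7 shares 85 exonic bases with Polr2b on the opposite strand, whose group means were 152 to 236, so reads of the pair may not be fully told apart.

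Per kilobase of exon, a scale on which genes can be compared, the make-up of the binding-protein mRNA differed by cell type. Igfbp2 made up 84.1 ± 1.09% of the summed 6 binding proteins in E11.5 UB, 19.7% in SP and 20.7 ± 2.53% in NP of that age. Igfbp4 led in E11.5 SP with 55.8% and Igfbp5 in E11.5 NP with 40.2%. In iUB Igfbp2 held 87.5 ± 0.853%, while it rose to 31.1% in iSP and to 43.3% in iNP, where it was the first. The summed level was 897 ± 168 normalised CPM per kilobase in iUB against 567 ± 71.8 in E11.5 UB, 705 ± 54.8 in iSP against 282 ± 30.6 in E11.5 SP, and 460 ± 54.1 in iNP against 190 ± 7.99 in E11.5 NP (SD, n = 4). In each of the 3 types the derived libraries lay above the E11.5 ones. The shares and sums are descriptions, with no test.

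**Figure D3:**
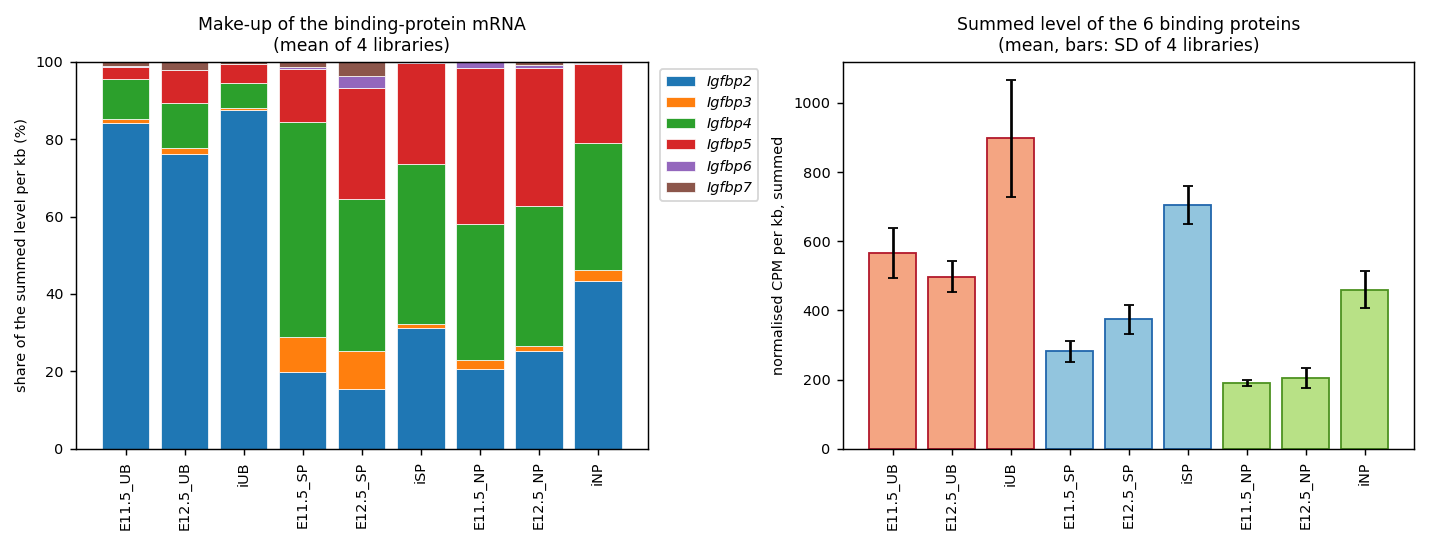
Left, share of each binding protein in the summed level per kilobase of the 6, in percent, as the mean of 4 libraries. Right, that summed level in normalised CPM per kilobase, mean with SD of 4 libraries, which is highest in iUB (897) and lowest in E11.5 NP (190), while Igfbp2 fills most of the bar in all 3 UB groups.

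Between the cell types of the fetus at E11.5, each binding protein, Igf2r and Irs1 differed in at least 1 comparison. UB and SP differed in 8 of 10 genes (53.6% of all genes were called), UB and NP in 8 of 10 (60.2%) and NP and SP in 7 of 10 (43.1%). UB cells had more Igfbp2 and Igfbp7 than both other types, with Igfbp7 21.01-fold the level of NP (log2 difference 2.66, adjusted p = 7.85e-08 with no filter). Igf2r was highest in SP and lowest in NP, with log2 differences of -0.47 between UB and SP, 0.69 between UB and NP and -1.16 between NP and SP. SP cells had more Igfbp3, Igfbp4 and Irs1 than both, with Irs1 3.60-fold the level of UB (adjusted p = 4.4e-05) and 4.83-fold that of NP (adjusted p = 4.31e-05). NP cells had the most Igfbp5, 4.07-fold the level of UB (adjusted p = 3.67e-09) and 2.03-fold that of SP (adjusted p = 0.000369). Igf1 and Igf1r were called in none of the 3 comparisons, with adjusted p between 0.113 and 0.853. In E11.5 SP replicate 3 held 2.11 normalised CPM of Igf1 with erythroid markers at 174, and replicate 4 held 1.56, the lowest, with 1149. For Igf1 the lack of a call depended on the tool and on replicate 4. Without that library Igf1 was called lower in UB than in SP (log2 difference -1.83, adjusted p = 0.0127) and in NP than in SP (-1.88, adjusted p = 0.025), which made 9 of 10 genes (58.8% of all genes) and 7 of 9 (46.7%), and edgeR called both too (adjusted p = 0.0263 and 0.0342). Igfbp7, called between NP and SP with all libraries, no longer passed the filter in the 7 of 9. The calls of Igfbp3, Igfbp4 and Irs1 between UB and NP, of small size (log2 differences of 0.47, -0.22 and 0.40), were lost when all 36 libraries shared 1 estimate of the spread (adjusted p = 0.216, 0.203 and 0.131), and those of Igfbp3 and Irs1 in 8 of 16 alternatives each. The call of Igfbp6 was lost in 8 of 16 alternatives between NP and SP (largest adjusted p = 0.106) and in 4 of 15 between UB and SP (0.0715).

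Between the derived cell types 9 of 9 genes differed between iUB and iSP (64.7% of all genes called), 7 of 9 between iUB and iNP (52.2%) and 6 of 9 between iNP and iSP (30.7%). Igfbp2 and Igfbp7 were higher in iUB than in iSP and iNP, as at E11.5, while at E12.5 Igfbp7 had a mean of 16.6 in SP and 12.1 in UB, without overlap. Igf1r was not called between iUB and iNP (log2 difference -0.78, adjusted p = 0.0524), and was without replicate 2 of iNP (-1.09, adjusted p = 0.000871). Igf1 was lower in iUB than in iSP by 8.05 and than in iNP by 4.75 on the log2(value + 1) scale, which understates the change of so low a gene, since the ratios of means were 1210 and 121, and lower in iNP than in iSP by 3.31 (adjusted p = 4.5e-11 and 4.84e-08 with no filter, and 6.12e-07). Igfbp4, Igfbp5 and Irs1 were lower in iNP than in iSP (log2 differences of -0.96, -1.08 and -1.26). For Igfbp5 this order was the reverse of that at E11.5, while at E12.5 the mean was 655 ± 179 in SP and 444 ± 144 in NP and the libraries overlapped. Without replicate 2 of iNP, 8 of 9 genes were called between iNP and iSP and 43.8% of all genes, with Igf2r then higher and Igfbp2 lower in iNP (log2 differences of 0.29 and -0.32, adjusted p = 0.00598 and 0.0423).

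The differences between derived and E11.5 cells were themselves compared between the cell types, in 1 model with all 6 groups. They differed between UB and SP for 9 of 10 genes (45.1% of all genes called), between UB and NP for 8 of 10 (47.7%, or 9 of 10 and 46.6% without replicate 2 of iNP, when Igf1r was called too at -0.98, adjusted p = 0.00241) and between NP and SP for 7 of 10 (31.5%). For Igf1 the log2 contrast of UB with SP was -6.74 (adjusted p = 1.06e-08) and that of UB with NP -4.80 (adjusted p = 1.67e-06). For Igf2r the contrasts were -4.41 and -5.57 (adjusted p = 9.37e-12 and 2.12e-13). Between NP and SP the greatest contrasts were those of Igfbp3 (3.18, adjusted p = 1.37e-09), Igfbp7 (2.86, adjusted p = 2.1e-08) and Igfbp5 (-2.13, adjusted p = 2.72e-06), for which the types went in opposite directions or, for Igfbp5, only iSP was called. For Igf1 the contrast of NP and SP (-1.95, adjusted p = 0.0217) was lost in 4 of 31 alternatives, among them edgeR (adjusted p = 0.374). That of Igfbp6 (-0.78, adjusted p = 0.0298) was lost in 12 of 31, and that of Irs1 (0.88, adjusted p = 0.0183) with quantile normalisation (adjusted p = 0.105).

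From E11.5 to E12.5 Igfbp5, Igfbp6 and Igfbp7 rose in SP, and Igfbp7 in NP. In UB, by the titles, 4 of 9 genes were called (26.5% of all genes), Igf1r, Igfbp5, Igfbp7 and Irs1, with log2 differences of 0.49, 1.05, 0.60 and 0.79 (adjusted p = 0.00484, 0.0165, 0.0143 and 0.00256). The summed UB markers were 2220 to 3612 at E12.5 and 3670 to 3947 at E11.5, and the smooth muscle markers 45.2, 14.7, 22.3 and 20.8 at E12.5 and 41.8 to 67.4 at E11.5. By the cell source labels the same 4 would be lower at E12.5, with log2 differences of the same size. The call of Igf1r was lost with all 36 libraries in 1 fit (adjusted p = 0.213), and that of Igfbp7 with quantile normalisation (adjusted p = 0.078). Without replicate 1 of E12.5 UB the count was 6 of 9 and 44.0% of all genes, with Igfbp3 and Igfbp4 then lower (log2 differences of -0.60 and -0.22, adjusted p = 0.0139 and 0.0122). Without replicate 4 of E12.5 UB it was 5 of 9 and 19.7%, with Igfbp2 lower (adjusted p = 0.0499). In SP 3 of 10 were called (8.52% of all genes), while the summed erythroid markers went from 44.2, 186, 174 and 1149 to 249, 2399, 2396 and 793, the UB markers (130 to 298 at E11.5) were 81.7 to 117 at E12.5, and the neural markers (11.6 to 17.8) were 4.39 to 5.64. There Igfbp6 went from 1.23, 1.43, 1.87 and 1.98 to 4.44, 12.6, 9.80 and 25.006 normalised CPM (7.96-fold, adjusted p = 0.01), and Igfbp7 from 3.90, 2.53, 4.61 and 5.96 to 17.2, 14.6, 16.3 and 18.5 (3.91-fold, adjusted p = 0.00218). Igfbp5 rose 2.88-fold (adjusted p = 0.00503), and none of these 3 overlapped between the ages. Without replicate 1 of E12.5 SP, in which the summed SP markers were 3657 against 5693 to 6108 in the other 3, the count was 4 of 10 and 21.5% of all genes, with Igf1r then higher too (log2 difference 0.74, adjusted p = 0.045). In NP 1 of 10 was called (6.34% of all genes), Igfbp7, at 0.312, 0.235, 0.299 and 0.615 and then 3.63, 1.57, 1.13 and 1.75 (log2 difference 1.09, adjusted p = 0.0367 with no filter). The highest, replicate 1 of E12.5 NP, had UB markers at 92.2 against 22.6 to 32.2 in the other 3. Its NP markers were 1280 against 1884 to 2132. Igfbp7 passed the filter through the 4 E12.5 NP libraries alone, so it could not be tested without any 1 of these, whichever was left out. The call was lost without replicate 1, 2 or 3 of E11.5 NP (adjusted p = 0.0663, 0.0905 and 0.0887). Markers of the differentiating nephron were 147 to 318 in these libraries at E11.5 and 284 to 449 at E12.5, and the part of any marker list in the changes with age was not tested.

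The rest of the pathway was followed in a list of 39 genes, of which 37 were in the table. Against E11.5 cells 11 were higher and 13 lower of 32 tested in iUB, 4 higher and 22 lower of 32 in iSP, and 5 higher and 17 lower of 34 in iNP, where 60.5%, 67.6% and 64.7% of all genes were called. The median log2 difference of the list was -0.09, -0.67 and -0.45, beside 0.02, 0.04 and 0.07 for all genes tested. Of 14 genes for PI3K, AKT, FOXO and their regulators, none was higher and 10 were lower in each of iSP and iNP, and in iUB 4 were higher and 5 lower. In iSP those lower included Foxo1, which encodes a transcription factor that AKT keeps out of the nucleus (log2 difference -2.21, adjusted p = 3.03e-06), and in iNP the related Foxo3 (-1.59, adjusted p = 4.91e-05). Of all genes called, 52.5% were higher in iSP and 54.9% in iNP, and the list was not tested against them.

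Grb10 was the gene of the list with the greatest fall in all 3 types. Its mean was 0.866 ± 0.338 normalised CPM in iUB and 1001 in E11.5 UB (log2 difference -9.09 ± 0.13 SE, adjusted p = 1.8e-10), 132 ± 21.9 in iSP and 1605 in E11.5 SP (-3.61 ± 0.13 SE, adjusted p = 6.19e-08), and 155 ± 30.1 in iNP and 2135 in E11.5 NP (-3.80 ± 0.15 SE, adjusted p = 6.38e-08). Of the genes that rose most, Stc1 and Stc2 encode stanniocalcins, which inhibit the protease PAPP-A. Stc1 was higher in iUB (log2 difference 4.52, adjusted p = 5.14e-09) and Stc2 in iSP (1.87, adjusted p = 0.000188). Htra3, which encodes a secreted protease, was higher in iUB (1.90, adjusted p = 6.5e-07), and the binding protein gene Igfbpl1 in iNP (3.20, adjusted p = 1.86e-06). None of the other binding protein genes in the list had a mean of 1 normalised CPM or more in E11.5 NP. Igfbpl1 could therefore not pass the filter without iNP libraries, so that the filter itself favoured a difference. The adjusted p given for Igfbpl1 is that of the fit with the filter. Igf2bp1, whose product binds Igf2 mRNA, was lower in iUB (-1.53, adjusted p = 3.05e-06).

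**Figure D4:**
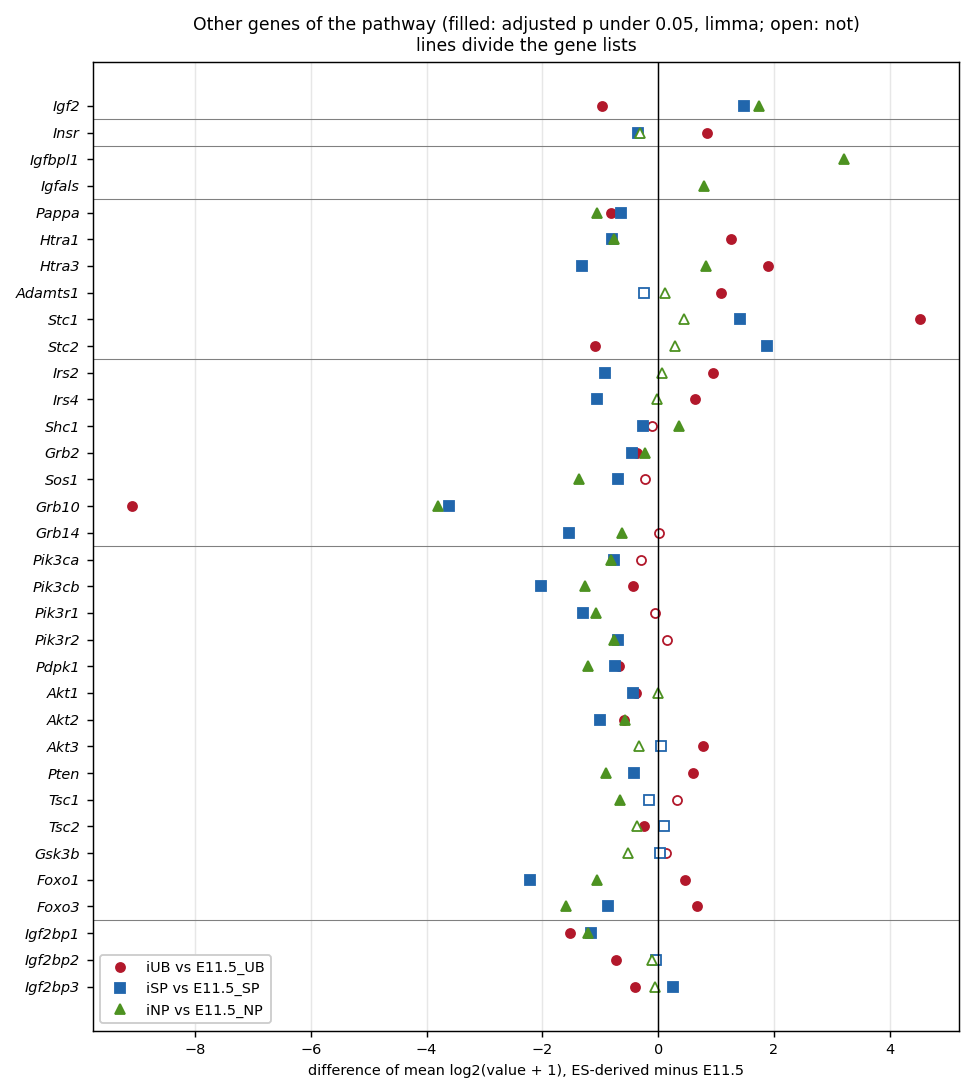
Difference of the other IGF pathway genes between derived and E11.5 cells, as the difference of mean log2(value + 1), with 1 symbol for each cell type and filled symbols for an adjusted p under 0.05. Grb10 lies furthest left in all 3 types (-9.09, -3.61 and -3.80), and the PI3K, AKT and FOXO genes lie mostly left of 0 in SP and NP.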

How the data were processed

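The deposited values are gene-level signal: per the file headers, the labels and the study's methods, the authors ran Cutadapt and STAR on paired-end reads of a stranded mRNA kit, and edgeR to scale the counts to library size (CPM). The methods name GRCh38, while the gene identifiers are mouse Ensembl. The annotation release, the counter and its use of strand are not given in the sources used here. Values were whole multiples of 1 read at a tolerance of 0.01 reads for 100% of values, so reads per library could be recovered. A further deposited table, with the same values and the authors' fold changes and p-values, was not used.

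The limma test (version 3.58.1, R 4.3.3) was fitted to log2(value + 1) over all genes that reached 1 in at least 4 of the libraries compared, and p-values were adjusted by Benjamini-Hochberg. Each comparison used its own groups, and the contrasts between cell types used 6 groups together. Fold values in the text are ratios of group means. Positions are those of GRCm38 (GENCODE vM21, which held 99.5% of identifiers). The genes and lists were chosen with earlier results of these data known. Named pathway genes were Igf2 and the 2 called genes with the greatest change in each direction against E11.5 cells. Alternatives included edgeR 4.0.16 on the recovered reads, other scalings, filters and pseudocounts (0.1), all 36 libraries in 1 fit, a replicate block and each library left out. Recounting calls without each of 5 single libraries was chosen after seeing the data. Figures were drawn with matplotlib 3.10.9. In a simulation of iUB and E11.5 UB, limma called 100% of the genes given a log2 change of 1 or 2, and 0.0582% of the rest. Only 200 genes were changed there, none of low level, where 60.5% of all genes were called in the data. All genes had the same spread setting, and no library stood apart. The simulation checks how the test runs, and does not give its power or error rate in these data.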

Additional observations from a re-analysis of the deposited data

Results flagged for a closer look

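In 15 of 90 sets of 4 libraries (10 genes in 9 groups) the highest or lowest library lay so far from its nearest neighbour that Dixon's ratio of gap to range passed its critical value, which chance passes in about 1 set in 20. Of these, 5 were the high values of replicate 1 of E12.5 UB: Igf1 at 32.9 normalised CPM, Igfbp3 at 56.2, Igfbp4 at 373, Igfbp5 at 427 and Igfbp6 at 0.696. The same library held the highest NP, SP and endothelial marker sums of its group (408, 429 and 94.2). A further 4 belonged to replicate 2 of iNP, with Igf1r at 83.4, Igf2r at 403 and Igfbp5 at 282 as the lowest values and Igfbp2 at 528 as the highest, and with NP markers at 488 against 733 to 904. In replicate 1 of E12.5 SP, where the summed SP markers were 3657 against 5693 to 6108, Igf2r was low at 377 and Irs1 high at 79.9. The others were Igfbp2 at 524 in replicate 1 of iSP, Igfbp4 at 228 in replicate 3 of E11.5 UB, and Irs1 at 14.0 in replicate 1 of E11.5 NP and at 30.1 in replicate 1 of E12.5 NP. What set these libraries apart was not tested.

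The difference between derived and E11.5 cells was tested for a difference between cell types in limma, and 24 of 30 contrasts were called. Of all genes, 45.1% were called in the contrast of UB and SP, 47.7% in that of UB and NP and 31.5% in that of NP and SP. Between UB and SP the log2 contrasts were -6.74 for Igf1, -1.14 for Igf1r, -4.41 for Igf2r, -1.30 for Igfbp2, 1.29 for Igfbp3, -0.87 for Igfbp4, -1.11 for Igfbp5, 1.27 for Igfbp7 and 0.99 for Irs1. Between UB and NP they were -4.80 for Igf1, -5.57 for Igf2r, -1.60 for Igfbp2, -1.88 for Igfbp3, -1.14 for Igfbp4, 1.011 for Igfbp5, 0.997 for Igfbp6 and -1.59 for Igfbp7. Between NP and SP they were -1.95 for Igf1, 1.16 for Igf2r, 3.18 for Igfbp3, -2.13 for Igfbp5, -0.78 for Igfbp6, 2.86 for Igfbp7 and 0.88 for Irs1. The last group was the least stable, with Igfbp6 lost in 12 of 31 alternatives, Igf1 in 4 of 31 and Irs1 in 1. A negative contrast is a lower difference in the type named first.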

How the results depend on the processing

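Of 116 called differences of single genes, 101 remained called in the same direction under every alternative that gave a value, 55 of 2170 alternatives ended a call, and 0 reversed 1. The count of IGF genes called moved by more than 1.5 times in 4 comparisons. For E12.5 against E11.5 NP, 1 in the fit as reported, it was 2 with all 36 libraries in 1 fit, 0 with a value of at least 1 required in all libraries (which leaves out Igfbp7), and 0 to 1 with a library left out (0 without replicate 2 or 3 of E11.5 NP or replicate 2, 3 or 4 of E12.5 NP). Leaving out any E12.5 NP library takes Igfbp7 out of the test as well. For E11.5 UB against NP, 8 as reported, it was 5 with all 36 libraries in 1 fit and 5 to 7 with a library left out (5 without replicate 2 or 4 of E11.5 UB). With a value of at least 1 in all libraries, which tests fewer genes, the contrast of UB and NP gave 5 in place of 8, and that of NP and SP 4 in place of 7.

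Whether samples with the same replicate number share a litter or batch is not given in the labels, and they were treated as unpaired. In no comparison were the deviations of all 4 same-numbered pairs correlated above 0.1, which cannot show that pairing is absent. The mean correlation of same-numbered pairs lay between -0.107 (E12.5 against E11.5 SP) and 0.329 (iUB against iSP, with -0.091 for other numbers). With the replicate block the count for E12.5 against E11.5 NP was 2, where Irs1 was then called (adjusted p = 0.0356), and no other call changed.

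Reversals concerned differences that were not called. Upper-quartile scaling gave log2 differences of -0.036 for Igfbp4 in iUB against E11.5 and -0.0069 against E12.5, 0.042 for Igf1r in iNP against E11.5, 0.038 for Irs1 in iSP against E12.5, 0.075 for Igf2r in iNP against iSP and -0.055 for the Irs1 contrast of UB and NP. Quantile normalisation gave 0.20 for Igf1r in iNP against E11.5, 0.10 for Igf1r and 0.073 for Irs1 in iSP against E12.5, -0.16 for Igfbp7 in iNP against E12.5, 0.033 for Igfbp4 in E12.5 against E11.5 UB, 0.027 for Igf1r in E11.5 UB against SP, -0.15 for Igf1 in E11.5 UB against NP and 0.095 for Igf2r in iNP against iSP. With edgeR the values were 0.28 for Igfbp3 and 0.0033 for Igfbp4 in E12.5 against E11.5 UB, -0.40 for Igf1 in E12.5 against E11.5 SP, 0.069 for Igf2r in iNP against iSP and -0.061 for the Igfbp6 contrast of UB and SP. The cause was not tested.

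With a library left out, log2 differences that crossed 0 ranged from -0.099 to 0.080 (Igfbp4, iUB against E11.5), -0.028 to 0.29 (Irs1, iSP against E11.5), -0.19 to 0.24 (Igf1r, iNP against E11.5), -0.49 to 0.32 and -0.072 to 0.24 (Igfbp3 and Igfbp4, iUB against E12.5), and -0.35 to 0.085 and -0.091 to 0.14 (Igf1r and Irs1, iSP against E12.5). Between the ages they ranged from -0.27 to 1.05, -0.60 to 0.21 and -0.22 to 0.060 in UB (Igf1, Igfbp3 and Igfbp4), from -0.28 to 0.78, -0.082 to 0.30 and -0.0094 to 0.31 in SP (Igf1, Igfbp2 and Irs1), and from -0.068 to 0.16 and -0.28 to 0.13 in NP (Igf2r and Igfbp5). Between cell types they ranged from -0.27 to 0.049 (Igf1r, E11.5 UB against SP), -0.069 to 0.14 (Igf1, E11.5 UB against NP), -0.15 to 0.16 (Igf1r, E11.5 NP against SP), -0.10 to 0.29 (Igf2r, iNP against iSP) and -0.098 to 0.21 (the Irs1 contrast of UB and NP).

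Upper-quartile scaling shifted the median of all genes by 0.104 in iNP against E11.5, -0.118 in iUB against iSP, -0.187 in iUB against iNP and -0.142 in the contrast of UB and NP. With it, the share of higher calls among all genes went from 43.3 to 57.3% in E12.5 against E11.5 NP, from 49.5 to 34.4% in iUB against iNP, from 47.0 to 34.1% in the contrast of UB and NP and from 58.9 to 71.3% in that of NP and SP (47.8% with quantile normalisation). Depth limits Igf1 and Igfbp6 in iUB, with 4 to 7 and 4 to 14 reads in a library.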

Other observations

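Over the 9 group means, on the log2(value + 1) scale and among 12634 genes with a mean of at least 5 normalised CPM in 1 or more groups, the gene most like Igf1 was Gdf10, which encodes a TGF-beta family ligand (Pearson r = 0.990). The gene most like Igf2r was Psme2, for a proteasome activator subunit (r = 0.970), and the one most like Irs1 was Frmd4a (r = 0.981). Those most like Igfbp4 and Igfbp5 were Rab3il1 (r = 0.990) and Zfp383 (r = 0.956). The 9 points share cell types and origins, and with this many genes searched a high value is found for any pattern, so these are descriptions.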
